A study of Mus musculus with 2 samples.

Results

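Hepatocytes divide their work along the liver lobule, and 10 genes that mark this division were followed through single-cell RNA libraries of mouse liver. The set holds 4 central genes (Glul, Cyp2e1, Cyp1a2 and Oat) and 6 portal genes (Cyp2f2, Hal, Sds, Pck1, Hsd17b13 and Ass1), out of 28692 genes in the tables. They were taken by symbol and read in barcodes that looked like hepatocytes: at least 2% of unique molecular identifiers (UMIs, 1 per captured transcript) from Alb, Apoa1, Apoa2, Ttr, Serpina3k and Trf together, and no UMI of Ptprc, the pan-leukocyte gene CD45. That rule kept 40 of 14258 barcodes in the control library and 3260 of 19822 in the tumor library.

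The study profiled mononuclear cells from the livers of C57BL/6 mice with and without liver tumors of MC38, a mouse colon carcinoma line. Both libraries were 10x libraries of livers collected on day 14, and each pooled 3 mice. The control library is labelled as having no tumor, after an injection of PBS into the spleen. The MC38 library came from mice that received 500000 MC38 cells in the spleen, which was then removed. The protocol text, the same for both libraries, also gives 3000000 MC38 cells under the skin. The sample titles hold SC and SC+liver, which are not expanded. The labels leave unclear if control mice were given the cells under the skin or lost their spleens. Low-speed spins removed most hepatocytes before a Ficoll gradient, so the barcodes described here are those that remained. With 1 library per group there was no replicate check and no test between groups, and library and condition cannot be told apart. All intervals are exact 95% intervals that cover counting error only, since barcodes are not replicates.

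Blood enters the lobule at the portal tract, where it is rich in oxygen, and leaves at the central vein. Hepatocytes near the portal tract are known for gluconeogenesis, urea synthesis and amino acid breakdown. Those near the central vein are known for glutamine synthesis and for drug oxidation by cytochrome P450 enzymes, and Wnt signals from central endothelium, acting through beta-catenin and TCF/LEF factors, maintain much of the central program. Among the central genes, Glul encodes glutamine synthetase, Oat ornithine aminotransferase, Cyp2e1 an ethanol-oxidizing P450 and Cyp1a2 a P450 that oxidizes caffeine. Among the portal genes, Pck1 encodes the gluconeogenic enzyme PEPCK, Ass1 a urea cycle enzyme, Hal and Sds enzymes that break down histidine and serine, Cyp2f2 a further P450 and Hsd17b13 a lipid-droplet protein.

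Promoters of 9 members were at hand from RefSeq (GRCm38.p6, the build named in the submitters' processing notes); Sds was not among them. The windows ran from 250 bases before to 50 bases after the annotated start and were searched on both strands for CTTTGAN, the core bound by TCF/LEF factors. The core was found in 4 of 9 member windows and in 5242 of 32851 RefSeq windows of the same length. Both a central and a portal pair held it, which is why these 4 are shown: the 250 bases before the start, 5′ to 3′ on the gene's strand, with each match in capitals.
Cyp2e1, plus strand, chr7:140763569-140763818: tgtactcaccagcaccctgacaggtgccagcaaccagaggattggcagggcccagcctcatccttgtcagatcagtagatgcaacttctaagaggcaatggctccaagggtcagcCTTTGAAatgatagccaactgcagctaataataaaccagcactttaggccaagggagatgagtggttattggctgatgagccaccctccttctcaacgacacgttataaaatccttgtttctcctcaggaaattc
Cyp1a2, minus strand, chr9:57683656-57683905: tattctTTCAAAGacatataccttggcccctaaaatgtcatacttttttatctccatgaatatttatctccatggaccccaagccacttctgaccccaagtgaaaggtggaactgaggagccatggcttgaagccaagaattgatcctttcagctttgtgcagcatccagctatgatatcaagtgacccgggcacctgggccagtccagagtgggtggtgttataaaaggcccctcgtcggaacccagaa
Hal, plus strand, chr10:93488518-93488767: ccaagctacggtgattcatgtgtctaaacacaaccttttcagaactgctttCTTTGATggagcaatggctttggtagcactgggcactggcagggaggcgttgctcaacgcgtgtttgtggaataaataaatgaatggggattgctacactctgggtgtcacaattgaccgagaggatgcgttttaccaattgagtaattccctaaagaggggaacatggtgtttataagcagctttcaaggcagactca
Hsd17b13, minus strand, chr5:103977389-103977638: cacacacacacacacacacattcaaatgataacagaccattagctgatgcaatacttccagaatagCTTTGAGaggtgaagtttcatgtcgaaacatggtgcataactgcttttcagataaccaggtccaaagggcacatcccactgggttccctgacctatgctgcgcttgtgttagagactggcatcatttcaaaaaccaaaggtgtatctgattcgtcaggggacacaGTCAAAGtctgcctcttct
Counting the first base after the 250 as 0, the match began at -135 in Cyp2e1, -244 in Cyp1a2 and -199 in Hal, and at -184 and -19 in Hsd17b13. No such match lay in the windows of Glul, Oat, Cyp2f2, Pck1 and Ass1. The cAMP-response core TGACG was present in 3 member windows (Pck1, Hsd17b13 and Oat; 20.8% of all windows), and in Pck1 it began at -90. The aryl hydrocarbon receptor core GCGTG was present in 2 (Ass1 and Hal; 32.4%), the glucocorticoid receptor motif TGTTCT in 1 (Cyp2f2; 19.0%), and the HNF4 motif CAAAGTCCA (0.475%) and the HNF1 motif (0.00913%) in none. A match describes the letters of the window and not binding. Cyp2e1, Oat and Cyp2f2 lie on chromosome 7, Pck1 and Ass1 on chromosome 2, Sds and Hsd17b13 on chromosome 5, Glul on chromosome 1, Cyp1a2 on chromosome 9 and Hal on chromosome 10, and GENCODE M21 lists all 10 as protein-coding.

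Hepatocyte RNA in these barcodes was also read through 8 markers that the rule did not use (Ahsg, Apob, Fgb, Hpx, Ambp, Rbp4, Serpina1c and Gc). All 8 were detected in both sets of barcodes, at a summed 10306 UMIs per 1000000 UMIs (CPM) in control and 10151 CPM in MC38. All other barcodes of the same libraries held 121 and 564 CPM. Both marker sets read hepatocyte RNA, so whether that RNA lay in cells or was free was not tested. The hepatocyte-marker barcodes were shallow, with a median of 1079 UMIs in control and 1254 in MC38, and the median share of the rule's 6 markers was 2.48% and 2.76%. In MC38, 264 barcodes lay between 2% and 2.1% and 256 lay between 1.9% and 2%; 235 reached 5%. Mitochondrial transcripts took a median of 22.3% of UMIs in control and 6.31% in MC38. T cell markers were at 0 in control and 14.0 CPM in MC38, myeloid markers at 285 and 394 CPM, and 42.7% of MC38 hepatocyte-marker barcodes held at least 1 myeloid-marker UMI. Leaving out barcodes with 3 or more UMIs of another class's markers (for erythroid markers, 5% of UMIs) left 3116 in MC38 and kept the counts of called members and of pericentral (17) and periportal (12) genes given below; the part of smaller amounts was not tested. The libraries shared 63 barcode sequences, none of which was a hepatocyte-marker barcode in both.

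In MC38 hepatocyte-marker barcodes all 10 members were detected. Pck1 stood at 2057 CPM (interval 2019 to 2096) and had a UMI in 82.5% of barcodes. Ass1 stood at 748 CPM with a UMI in 56.6%, Sds at 379 CPM with 29.4%, and Hal at 184 CPM with 20.6%. Hsd17b13 (36.4 CPM, 5.34%) and Cyp2f2 (24.9 CPM, 3.80%) were sparse. These portal genes differed from one another in how many barcodes carried them: Pck1 was seen in most and Cyp2f2 in few.

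On the central side, Oat stood at 1209 CPM with a UMI in 45.5% of barcodes, Glul at 1179 CPM with 26.7%, Cyp2e1 at 433 CPM with 34.7%, and Cyp1a2 at 6.41 CPM with 1.01%. These levels moved with the marker share required. In the 235 barcodes with at least 5%, Oat was 712 CPM, Glul 814 CPM, Cyp2e1 738 CPM, Cyp1a2 19.0 CPM and Hsd17b13 82.3 CPM. Cyp2e1 and Hsd17b13 were thus higher and Oat and Glul lower than at 2%. The interval of Cyp1a2 (6.97 to 41.4) overlapped that at 2% (4.44 to 8.96). Pck1 (1856 CPM), Sds (291 CPM) and Hal (124 CPM) were also lower at 5%, while the intervals of Ass1 (643 CPM) and Cyp2f2 (22.2 CPM) overlapped those at 2%. In the 12 barcodes with at least 10%, Oat was 157 CPM (19.0 to 567) and Glul had no UMI (0 to 290 CPM). Glul was concentrated in few barcodes. The tenth of barcodes with most Glul held 86.7% of its UMIs, against 63.6% for Oat, 55.9% for Cyp2e1 and 37.1% for Pck1. After each barcode was thinned to 500 UMIs, the variance of Glul counts was 5.24 times their mean, that of Oat 2.60 times, and that of the other 8 members between 0.988 and 1.38 times. Among the 869 barcodes with Glul the median was 2 UMIs, 370 had a single UMI, 334 had 5 or more, and the highest had 247.

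**Figure D1:**
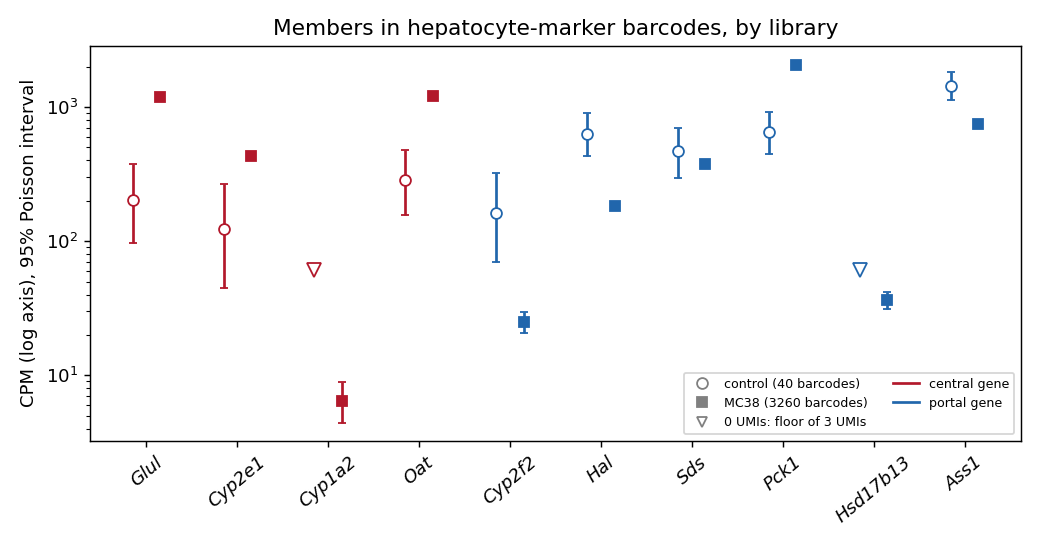
CPM of each member (log axis) in hepatocyte-marker barcodes of the control library (open circles, 40 barcodes) and the MC38 library (squares, 3260 barcodes), with exact 95% Poisson intervals; open triangles mark the level of 3 UMIs where control held none. Glul, Cyp2e1, Oat and Pck1 sit higher in MC38, and Cyp2f2, Hal and Ass1 sit higher in control.

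Between the libraries, 4 members were higher in MC38 and 3 were lower, where a gene is called if its CPM differs by at least 1.5 times and the interval of the ratio leaves out 1. Glul was 204 CPM in control and 1179 CPM in MC38, a ratio of 5.79 (3.14 to 12.1). Oat was 285 and 1209 CPM, a ratio of 4.24 (2.53 to 7.76), and Cyp2e1 122 and 433 CPM, a ratio of 3.55 (1.63 to 9.67). Pck1 was the portal exception, at 652 and 2057 CPM, a ratio of 3.16 (2.23 to 4.62). Over all 9985 genes with 10 or more UMIs in both sets together, 3.21% were called higher and 2.27% lower. Control held 49097 UMIs, and only 600 genes had 10 or more UMIs in each set. Many counted genes were thus too sparse in control to be called, so these shares are a low background for abundant members.

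The 3 members that were lower in MC38 were all portal. Cyp2f2 was 163 CPM in control, 6.55 times its level in MC38 (2.77 to 13.3), Hal was 631 CPM, 3.43 times (2.32 to 4.90), and Ass1 was 1446 CPM, 1.93 times (1.51 to 2.44). Sds, at 468 and 379 CPM, was not called, with a ratio of MC38 to control of 0.809 (0.537 to 1.28). Cyp1a2 and Hsd17b13 had no UMI in control, where 3 UMIs correspond to 61.1 CPM, above their levels in MC38, so no difference was detectable at this depth.

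The control values rest on few molecules. Central genes gave 30 UMIs and portal genes 165 in the 40 control barcodes, and 9 of the 10 Glul UMIs and 12 of the 14 Oat UMIs came from 1 barcode. Without that barcode, control held 1 Glul UMI and 2 Oat UMIs, the ratios became 57.1 (10.2 to 2255) for Glul and 29.3 (8.10 to 242) for Oat, and the counts stayed at 4 higher and 3 lower. Raising the marker share to 5% left 4 control barcodes, with 1 member called higher and 1 lower. Limiting mitochondrial UMIs to 10% left 7, where 2 calls were lost and Sds was called lower in MC38 (log2 ratio -1.13). The log2 ratio of Pck1 went from 1.66 to 0.67, while that of Cyp2f2 was -2.71 and -2.76 and lost its call through a wider interval.

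Outside hepatocyte-marker barcodes, the members were read in barcodes with at least 3 UMIs from 2 or more markers of another class and under 2% hepatocyte-marker UMIs (for the erythroid class, at least 5% of UMIs). In MC38 each of the 10 members was lower in all 8 other classes than in hepatocyte-marker barcodes, although in endothelial-marker barcodes Cyp2f2 (3 UMIs, 22.9 CPM), Hsd17b13 (2 UMIs, 15.2 CPM) and Cyp1a2 (0 UMIs) were within counting error. Pck1 ranged from 65.3 CPM in myeloid-marker to 731 CPM in endothelial-marker barcodes, and Sds from 10.8 to 68.6 CPM. T-marker and B-marker barcodes had median depths of 4362 and 2884 UMIs. Thinned to 500 UMIs per barcode, Pck1 was seen in 3.30% of T-marker and 6.06% of B-marker barcodes, against 58.3% of hepatocyte-marker barcodes. For Sds the shares were 1.10%, 0.779% and 13.7%. The shares in T-marker and B-marker barcodes describe Pck1 and Sds outside hepatocyte-marker barcodes. Whether they come from free RNA or from the cells themselves was not tested.

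Members were also set against the 8 independent hepatocyte markers, as UMIs per 100 UMIs of those markers in the same MC38 class. Among Sds, Cyp2e1, Pck1, Glul, Oat and Ass1, Sds varied least across classes and Glul most. Sds stood at 3.73 in hepatocyte-marker barcodes and between 3.45 and 4.96 elsewhere. Cyp2e1 stood at 4.27 and between 3.04 and 6.03, ends that rest on 16 and 14 UMIs. Pck1 stood at 20.3 in hepatocyte-marker barcodes and between 24.2 and 41.4 elsewhere. Glul stood at 11.6 in hepatocyte-marker barcodes, 15.2 in B-marker and 15.8 in T-marker barcodes, but at 46.1 in Kupffer-marker and 39.96 in myeloid-marker barcodes. Oat stood at 11.9 in hepatocyte-marker barcodes and between 11.2 and 28.4 elsewhere, highest in myeloid-marker barcodes. Ass1 stood at 7.37 and between 6.90 and 20.2, highest in T-marker barcodes. Kupffer cells are the resident macrophages of the liver. In Kupffer-marker barcodes Glul was 309 CPM (287 to 332, 658 barcodes) in MC38 and 185 CPM (167 to 204, 1047 barcodes) in control. The 8 independent hepatocyte markers summed to 671 CPM there in MC38 and 204 CPM in control. Per 100 UMIs of those markers the order was reversed, with Glul at 46.1 in MC38 and 90.7 in control. At 500 UMIs, Glul was seen in 17.6% of Kupffer-marker barcodes in MC38 (14.8% to 20.8%) and in 17.9% of hepatocyte-marker barcodes (16.6% to 19.2%). Endothelial-marker barcodes in MC38 numbered 53 and held 63 Glul UMIs (480 CPM) and 96 Pck1 UMIs (731 CPM), at 27.2 and 41.4 per 100 marker UMIs.

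**Figure D2:**
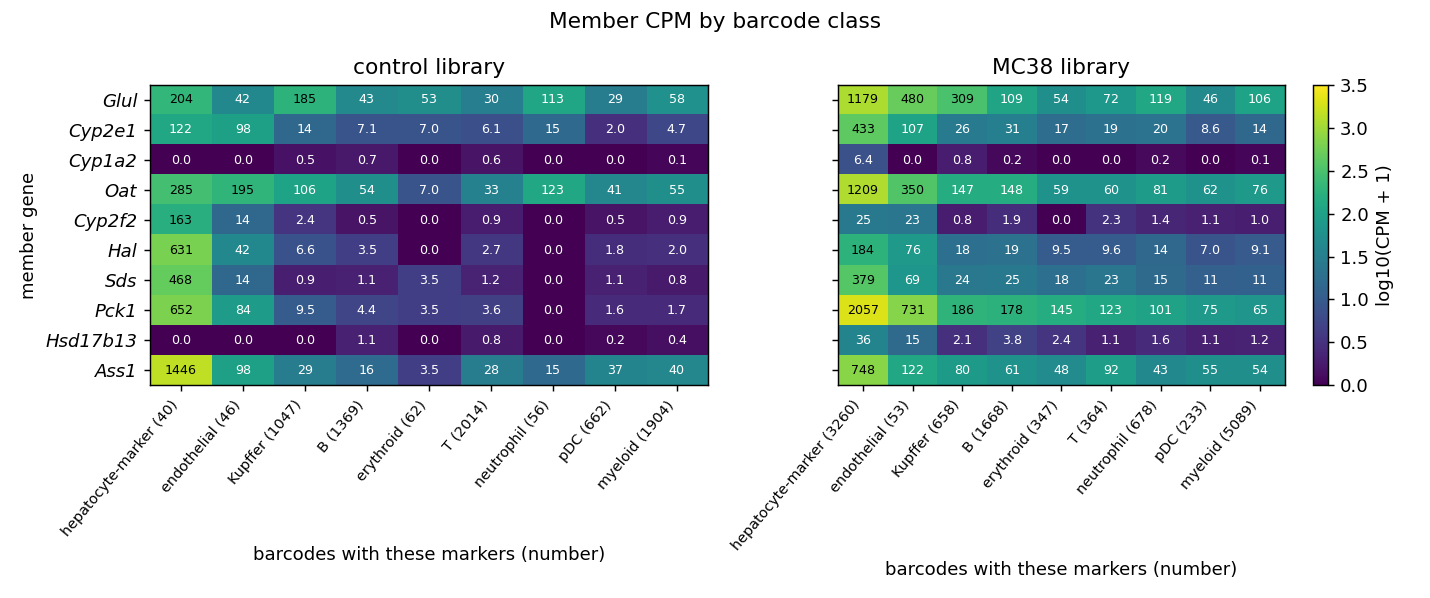
CPM of each member (rows; colour is log10 of CPM + 1, numbers are CPM) in barcodes of 9 marker classes (columns, with the number of barcodes) in each library. In MC38 the hepatocyte-marker column is the highest for every member, and Glul is also at 309 CPM in Kupffer-marker barcodes.

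Within the MC38 library, barcodes with and without Glul differed in the other members along the central and portal grouping. Background for this comparison was 2.76% of 9963 genes higher and 1.79% lower with Glul. All 3 other central members were higher in the 869 barcodes with Glul than in the 2391 without. Oat rose from 557 to 2785 CPM, 4.998 times (4.74 to 5.27). Cyp2e1 rose from 289 to 783 CPM, 2.71 times (2.50 to 2.95), and Cyp1a2 3.06 times (1.47 to 6.47), on 15 and 19 UMIs.

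Of the 6 portal members, 4 were lower with Glul. Without Glul, Cyp2f2 was 3.23 times higher (1.88 to 5.95), Sds 2.08 times (1.84 to 2.34), Hsd17b13 1.94 times (1.33 to 2.89) and Hal 1.70 times (1.45 to 2.01). Pck1 was 1901 CPM with and 2122 CPM without Glul, and Ass1 642 and 793 CPM; both differences fell short of 1.5 times. In the 235 barcodes with a marker share of at least 5%, the 4 portal calls were lost, and the log2 ratio of Hal and of Sds turned to 0.11. Of the other pericentral genes, 15 of 20 counted were higher with Glul and 0 lower, and of the periportal genes 0 of 19 were higher and 7 lower. Median depth was 1374 UMIs with and 1213 without Glul, and the erythroid markers stood at 347 and 803 CPM. The erythroid gap came down to 347 against 367 CPM without 3 barcodes that held 5% or more erythroid UMIs.

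The other members also differed between low and high Glul counts. From barcodes with no Glul, to 1 to 4 UMIs, to 5 or more, Oat went from 557 to 1229 to 5130 CPM and Cyp2e1 from 289 to 512 to 1192 CPM. Sds went from 446 to 310 to 72.7 CPM, and Hal from 210 to 170 to 51.7 CPM. In the 334 barcodes with 5 or more Glul UMIs, 97.3% had Oat (94.9% to 98.8%) and 8.38% had Sds (5.64% to 11.9%), against 36.3% and 33.1% where Glul was absent. Pck1 was present in 83.8% of the former and 82.8% of the latter, with overlapping intervals.

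**Figure D3:**
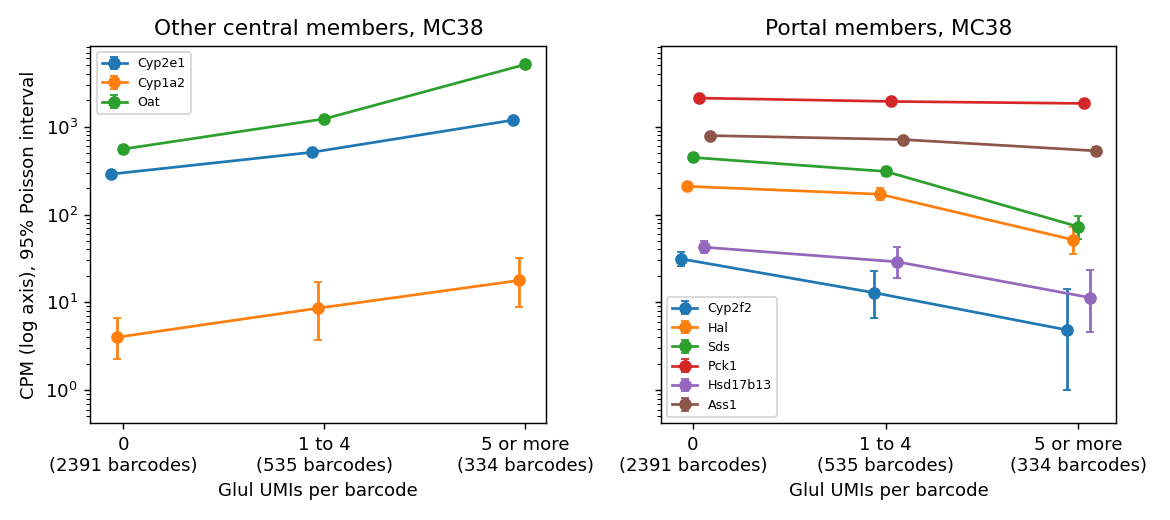
CPM (log axis) of the other central members (left) and the portal members (right) in MC38 hepatocyte-marker barcodes with 0, 1 to 4 and 5 or more Glul UMIs, with exact 95% Poisson intervals. Oat climbs from 557 to 5130 CPM and Sds drops from 446 to 72.7 CPM, while Pck1 lies between 1843 and 2122 CPM.

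Each barcode was then given a central share, the central UMIs over all member UMIs, where at least 3 member UMIs were present. In MC38, 2665 barcodes qualified, with a median share of 0.25. Portal genes alone were seen in 816 (30.6%), central genes alone in 91 (3.41%), and both kinds in 1758 (66.0%). A share over 0.5 was found in 28.6% (26.9% to 30.4%). A share can rest on only 3 member UMIs, and whether barcodes form a range or a set of types was not tested. The share leans on Pck1, which gave 60.0% of portal UMIs: without Pck1, 50.4% of barcodes were over 0.5. In control 22 barcodes qualified, 18 of them at 0 and 2 over 0.5 (9.09%, 1.12% to 29.2%). Over summed UMIs the central genes made up 15.4% in control and 45.2% in MC38.

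The highest and lowest tertile of the share, 892 barcodes each, were compared as central-weighted and portal-weighted barcodes. The cuts lay at 0.444 and 0.0714, and 122 and 186 barcodes lay within 0.05 of them. Since members make the share, each member was compared between tertiles of the share of the other 9, which held 661 to 1134 barcodes as ties allowed. Ranked in this way, Glul was 3868 CPM in central-weighted and 95.5 CPM in portal-weighted barcodes, 40.5 times (34.6 to 47.7). Oat was 9.88 times higher (9.07 to 10.8), Cyp2e1 6.09 times (5.34 to 6.96) and Cyp1a2 5.06 times (1.86 to 17.2).

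On the portal side the members split. Sds was 726 CPM in portal-weighted and 68.0 CPM in central-weighted barcodes, 10.7 times (8.66 to 13.3). Cyp2f2 was 8.17 times higher in portal-weighted barcodes (3.95 to 19.6), Hal 5.55 times (4.33 to 7.19) and Hsd17b13 4.74 times (2.77 to 8.64). Pck1, at 2542 and 1706 CPM, was 1.49 times higher (1.41 to 1.58) and Ass1 1.26 times (1.15 to 1.37), both with intervals above 1 and ratios short of the 1.5 times needed for a call. Across 5 ranges of the share of the other 9 members, Glul went from 95.5 CPM at a share of 0 to 7134 CPM above 0.75, and Sds from 754 to 38.7 CPM. Ass1 lay between 782 and 868 CPM in the first 4 ranges and at 588 CPM (538 to 642) above 0.75.

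**Figure D4:**
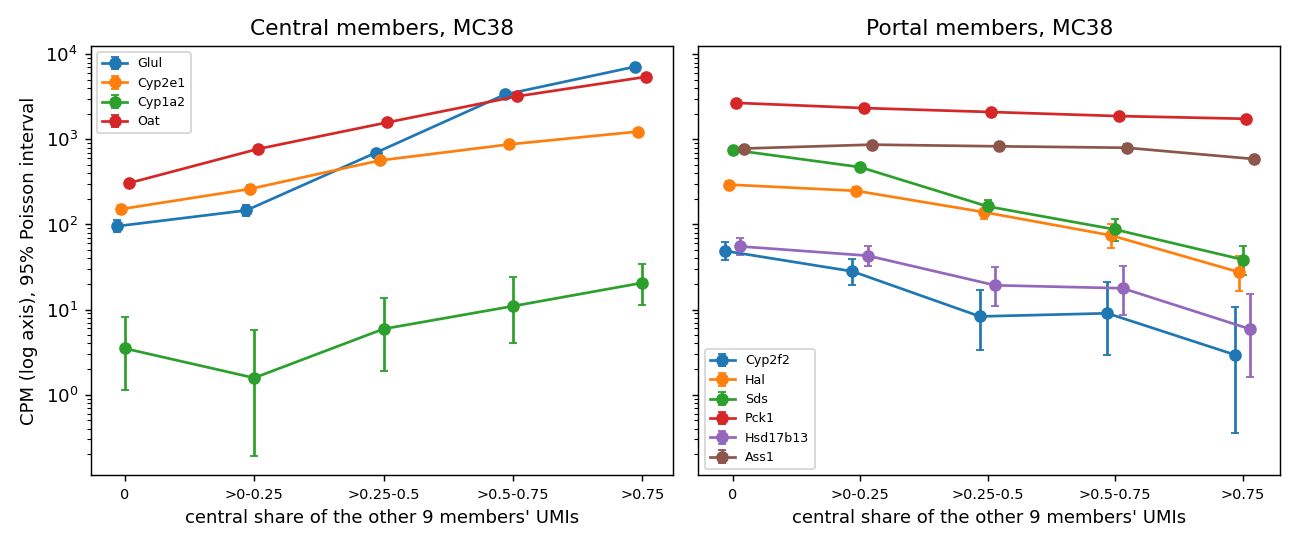
CPM (log axis) of central members (left) and portal members (right) over 5 ranges of the central share of the other 9 members in MC38 hepatocyte-marker barcodes, with exact 95% Poisson intervals. Glul, Oat and Cyp2e1 rise and Sds and Hal fall across the ranges, and Pck1 goes from 2685 to 1747 CPM.

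Members were also paired within barcodes thinned to 500 UMIs (3260 barcodes, none left out). Correlations are of log-scaled counts across barcodes of 1 library that share its depth and free RNA, and are descriptions. All 6 pairs of central genes had a Pearson r above 0, from 0.03 to 0.46, and in 4 the second gene was seen more often in barcodes with the first than in those without, with intervals that did not overlap. The strongest was Glul with Oat (r 0.46, Spearman rho 0.44): Oat was seen in 66.4% of 583 barcodes with Glul. All 24 pairs of a central and a portal gene had an r below 0, down to -0.16 for Oat with Sds, and 8 were seen together less often. The 15 portal pairs reached at most 0.06, and 4 were seen together more often. Without thinning, 14 portal pairs were seen together more often.

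Over 1296 genes seen in at least 5% of the thinned barcodes, the genes most like Glul were Oat (0.46), Cyp2e1 (0.26) and Rgn (0.22), and those most like Oat were Glul, Akr1c6 (0.27) and Cyp2e1. Those most like Cyp2e1 were Glul, Oat and Akr1c6 (0.18). Sds was most like Bhmt (0.16), Arg1 (0.15) and Hrsp12 (0.12), Hal was like Arg1 (0.13) and Bhmt (0.09), and Pck1 reached 0.14 with Arg1. Ass1 reached 0.10 with Mat1a, and Cyp2f2 and Hsd17b13 at most 0.06 and 0.08, too weak to read.

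Genes outside the ranking were counted between the central-weighted and portal-weighted barcodes, where 4.07% of 8873 genes were higher and 3.63% lower in central-weighted barcodes, with a median log2 ratio of -0.01. Of 24 other pericentral genes, 19 had the 10 UMIs needed, and 17 were higher and 0 lower, with a median log2 ratio of 1.75 over the 17 seen in both sets. Lhpp, a phosphatase, was 183 and 9.97 CPM, 18.3 times (11.2 to 32.0). Tbx3, a transcription factor of the Wnt program, was 10.8 times higher (3.32 to 55.6) on 27 and 3 UMIs, and Axin2, a beta-catenin target, 5.59 times (1.56 to 30.4) on 14 and 3. Rgn was 1306 and 297 CPM, 4.40 times (3.99 to 4.86), and Akr1c6 3206 and 1191 CPM, 2.69 times. Slc1a2, a glutamate transporter, had 22 UMIs against 0. With the 0 set at 3 UMIs over the set the ratio would be 8.79, and the exact interval of the ratio starts at 6.56. Aldh1a1 (1.48 times) and Cyp2c29 (1.20 times, 0.561 to 2.56) were not called.

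Of 20 other periportal genes, 18 were counted, and 12 were lower in central-weighted barcodes and 0 higher, with a median log2 ratio of -1.20. Aldh1b1, a mitochondrial aldehyde dehydrogenase, had 97 UMIs in portal-weighted barcodes and 2 in central-weighted barcodes, 40.5 times (10.9 to 339). Etnppl was 10.2 times higher in portal-weighted barcodes (3.75 to 39.0), Gldc, of the glycine cleavage system, 4.58 times, and Gls2, liver glutaminase, 3.72 times. The urea cycle genes Cps1 (2.56 times), Arg1 (2.199 times), Otc (1.56 times) and Asl (1.55 times) were all on this side. The 1.26 times given above for their partner Ass1 came from other tertiles, ranked without Ass1, so it is not on the same footing. In the same tertiles as these genes, which Ass1 helps to make, it was 898 CPM in portal-weighted and 613 CPM in central-weighted barcodes. The gluconeogenic genes Fbp1 (1.21 times) and G6pc (1.73 times, 0.864 to 3.66) were not called. Sox9 was 2.54 times higher in portal-weighted barcodes and is also a bile duct marker. The 4 bile duct markers summed to 83.9 CPM in portal-weighted barcodes, all of it Sox9, and to 35.2 CPM in central-weighted barcodes, 33.0 of it Sox9, so Krt19, Krt7 and Epcam were at or near 0.

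**Figure D5:**
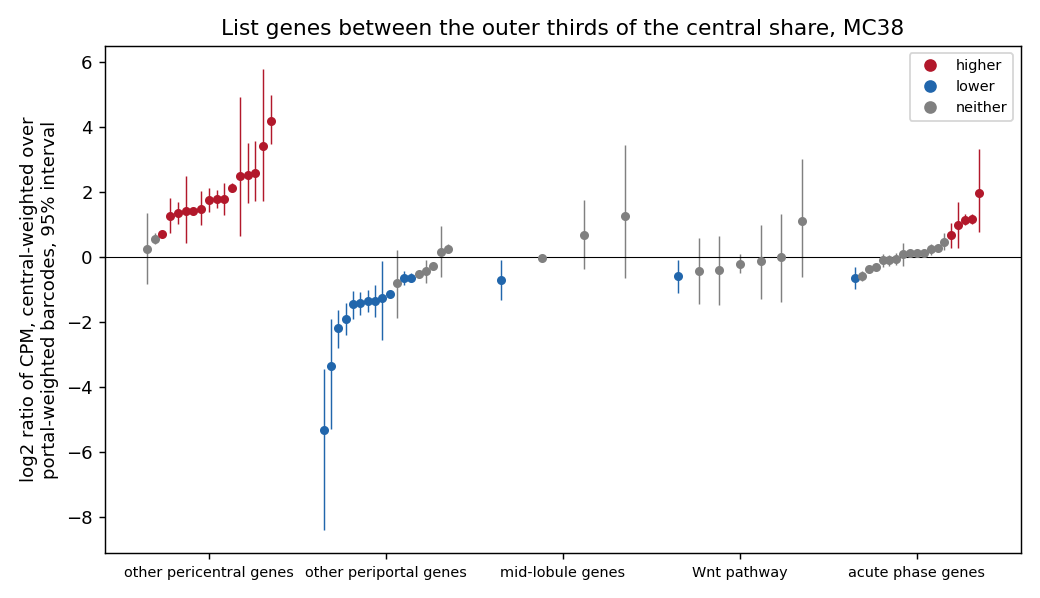
The log2 ratio of CPM between central-weighted and portal-weighted MC38 barcodes for each gene of 5 lists that was counted and seen in both sets, with exact 95% intervals; red points were called higher, blue lower and grey neither. Pericentral genes centre on 1.75 and periportal genes on -1.20.

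Of 4 mid-lobule genes, Hamp, the iron hormone hepcidin, was 1509 and 1553 CPM, and Igfbp2 was 1.62 times higher in portal-weighted barcodes (1.07 to 2.50) but turned the other way (log2 0.40) after thinning to 500 UMIs. Of 16 Wnt and beta-catenin pathway genes, 7 were counted, and 1, Gsk3b, was called, 1.51 times higher in portal-weighted barcodes; the ligands Wnt2, Wnt9b and Rspo3 had no UMI in either set. Of 19 acute phase genes, 5 were higher in central-weighted barcodes (Saa1 2.22 times, Saa2 2.25 times, Saa3, Saa4 and Orm3) and 1 lower (Cp), while Hp, Fgb, C3 and 10 others were not called. Saa1 and Saa2, the Orm genes and the Cyp2c genes have close copies between which counting can split reads.

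Outside the members and lists, the genes with the largest lower bounds on the central side included Sult3a1 (118 UMIs against 1), Rcan2, Fitm1, Gstm2, Pon1, Hspb1, Celf2, Ang and Blvrb. Sult3a1, a sulfotransferase with a close copy, was 83.0 and 0.587 CPM. Gstm2, a glutathione transferase, was 6.14 times higher (4.83 to 7.89) and Ang, which encodes the ribonuclease angiogenin, 2.57 times (2.15 to 3.09). On the portal side they included Cib3, Tstd1, Sdsl, Sfxn1, Serpina12, Bhmt, Sult2a1, Amdhd1 and Hrsp12. Cib3 was 9.28 times higher in portal-weighted barcodes (6.90 to 12.7) and Sdsl, a relative of Sds, 8.01 times (5.65 to 11.7). Sfxn1, a mitochondrial serine carrier, was 7.02 times higher, and Amdhd1, which acts after Hal in histidine breakdown, 3.03 times (2.44 to 3.79). Central-weighted barcodes had a median of 1271.5 UMIs and 5.41% mitochondrial UMIs, against 1492 and 6.69% in portal-weighted barcodes, and after thinning to 500 UMIs 152 genes were higher and 177 lower, where 361 and 322 were without it.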

How the data were processed

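The files hold raw UMI counts per gene and barcode as deposited by the authors, with gene names and barcodes beside them. Seurat 2.3.4, R 3.6.0, Cell Ranger 2.2, STAR, bcl2fastq and the build GRCm38.p6 are listed in the submitters' processing notes, without roles; the matrix header names software version 3.0.2. The libraries totalled 91617457 UMIs in control and 114421875 in MC38.

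UMIs were summed over barcodes and given as CPM with exact Poisson intervals, shares with exact binomial (Clopper-Pearson) intervals, and ratios with exact conditional intervals (Python 3.11.15, numpy 2.4.6, scipy 1.17.1). A gene was called if its CPM differed by at least 1.5 times and the interval of the ratio left out 1, among genes with 10 or more UMIs in both sets together. The calling step was tested on simulated counts. No cluster names were made, and doublets were kept (scrublet called 4.16% of control and 7.86% of MC38 barcodes; leaving out scrublet calls, from scanpy 1.11.5, was an alternative). Named genes were the members, the 10 largest lower bounds in each direction at 50 CPM or more in the higher set (ribosomal, mitochondrial, hemoglobin and unnamed genes left out), called list genes, and the 3 most correlated genes per member with 100 UMIs or more. Alternatives varied the barcode filters, the scaling, the ranking and the depth. The members and lists were chosen with earlier results of these data known. A few genes that this rule selects are not reported here.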

Additional observations from a re-analysis of the deposited data

How the results depend on the processing

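No paired analysis was possible because each group is 1 library. The minimum of 200 genes left out no barcode and tests nothing. Of 895 values recomputed under the other 19 settings, 778 kept their direction and side of the threshold or moved within their interval. A marker share of at least 5% (235 MC38 and 4 control barcodes) gave 1 member higher and 1 lower in MC38, 92 genes higher and 100 lower in central-weighted barcodes, 6 pericentral genes higher, 6 periportal lower and 3 acute phase higher, and 0 portal members lower with Glul. It turned the log2 ratio of Igfbp2 to 0.18, Saa4 to -0.0086, Hal with Glul to 0.11 and Sds with Glul to 0.11. At 10% (12 and 1 barcodes), 0 members were higher and 0 lower, and the comparisons within MC38 were not run. Thinning to 500 UMIs gave 152 genes higher, 177 lower and 3 acute phase genes higher, turned Igfbp2 to 0.40, and put 39.6% of barcodes over a central share of 0.5. That share was 32.0% with at least 5 member UMIs and 50.4% without Pck1. Counting genes with at least 50 UMIs left 227 higher and 200 lower, since fewer genes are counted. Without thinning, 2 cross pairs were seen together more often and 14 less often, and 14 portal pairs more often. Leaving out doublet calls (13 MC38 barcodes) gave 363 genes higher and 321 lower in central-weighted barcodes, and leaving out barcodes with other classes' markers gave 364 and 332; both kept the counts of called members. Except where a reason is given, the cause was not tested. The share without Pck1, the minimum of 50 UMIs, the ranking by the other 9 members, the barcodes with 5 or more Glul UMIs and the control set without 1 barcode were chosen after seeing the data. Sparse members (Cyp1a2, Cyp2f2, Hsd17b13) are limited by depth.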

Other observations

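A few genes known from blood and vessel cells differed between MC38 hepatocyte-marker barcodes with and without Glul. They were picked after their values were seen and are not read as standing for a group. With and without Glul, summed endothelial markers were 27.1 and 17.1 CPM, Kupffer markers 38.0 and 30.9 CPM, and myeloid markers 433 and 378 CPM. Neutrophil markers were 14.8 and 21.3 CPM, B cell markers 16.1 and 21.9 CPM, and T cell markers 14.2 and 13.9 CPM. The myeloid gene Prtn3 was not called (ratio 1.25). Ifitm1, an interferon-induced membrane gene, was 74.1 CPM with Glul and 21.9 CPM without, 3.39 times (2.53 to 4.56). It was seen in 3.16% of hepatocyte-marker barcodes (197 UMIs). Its level was 1254 CPM in neutrophil-marker, 354 CPM in myeloid-marker, 266 CPM in Kupffer-marker and 168 CPM in T-marker barcodes. Fabp4, a fatty acid binding protein of capillary endothelium, was 87.0 and 42.9 CPM, 2.03 times (1.60 to 2.56), and stood at 1600 CPM in endothelial-marker barcodes. Ccl6, a myeloid chemokine, was 103 and 54.9 CPM, 1.88 times (1.52 to 2.32), against 2629 CPM in Kupffer-marker barcodes. Zap70, the T cell receptor kinase, went the other way at 40.6 and 68.2 CPM, a ratio of 0.595 (0.444 to 0.786). It was seen in 8.68% of hepatocyte-marker barcodes, where T cell markers summed to 14.0 CPM, and in 43.7% of T-marker and 1.37% of Kupffer-marker barcodes. Between central-weighted and portal-weighted barcodes the calls differed for some of these genes. Prtn3 was called higher in central-weighted barcodes, 2.71 times (2.01 to 3.67), while Ifitm1 (1.03 times, 0.570 to 1.84) and Ccl6 (1.45 times) were not called. Fabp4 was again higher (2.22 times) and Zap70 again lower (a ratio of 0.595, 0.434 to 0.808). The part of free RNA or shared droplets in these values was not tested.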
